A study of Mus musculus with 12 samples.

Results

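The Traj segments, the joining (J) gene segments of the T cell receptor alpha locus, were followed along the locus in TRAC chains, the alpha chains, of 12 TCR libraries. All listed Traj segments except J18 and J33 were taken, by segment number, which gave 39 of the 41 listed segments. J18 and J33 were left out because Trav11 with Traj18 is the chain of invariant NKT cells and Trav1 with Traj33 that of MAIT cells. The 39 segments held 1085409 of 1145380 TRAC UMIs (94.8%) and 485478 of 509702 TRAC clonotypes (95.2%). A UMI is a molecular barcode put on each cDNA molecule, counted here when at least 3 reads carried it. A clonotype is 1 combination of V, J and CDR3 bases, so a large clone counts once among clonotypes and many times among UMIs.

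CD8 T cells were isolated with CD8 microbeads from tumors, spleens and tumor-draining lymph nodes (tdLNs) of WT C57BL/6J mice, 6 to 8 weeks old, that carried tumors of the mouse oral cancer line Q1-2. The mice had received control IgG, IL-10-Fc (IL-10 fused to an Fc part), αCSF1R (an antibody against the macrophage receptor CSF1R) or BF10, the fusion of the αCSF1R antibody with human IL-10. The labels give an equivalent dose of 30 mg/kg for all, in 3 doses at intervals of 3 days, while the methods give a different dose for each molecule. RNA of 3 mice was pooled for each library and each of the 4 treatments has 1 library per tissue, so the 4 libraries of a tissue differ in treatment and p-values between tissues measure the spread between these pools. Each tissue was delivered as a separate set of 4 libraries, so tissue and library preparation cannot be told apart. The 39 segments had 20015 to 130265 UMIs and 2264 to 60359 clonotypes per library. The cell type tag gives CD8 T cells for all 12 libraries, but CD8 stands in the titles of the tumor and spleen libraries and not in those of the tdLN libraries. TCR libraries hold no marker by which the CD8 label could be checked.

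The alpha locus has its V genes (Trav) at the 5′ end, then the array of Traj segments, then the constant gene, and a functional alpha chain is made by joining 1 V to 1 J with no D segment between them. The first joins in a thymocyte use V genes near the array and J segments at its V side. Later rounds on the same chromosome delete what lies between and join V genes farther upstream to J segments nearer the constant gene, until a receptor is selected or the cell dies. Each J is preceded by a recombination signal, made of a conserved nonamer, a spacer and a conserved heptamer, at which the RAG recombinase cuts. The J then supplies the 3′ part of the CDR3, the loop that touches the peptide, and a Phe-Gly-X-Gly motif that closes it.

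The most used segments, J22, J30, J31, J23 and J26, and the least used, J7, J35, J5, J2 and J58, are shown with their signals, together with J57, J39, J37 and J45, which differed most between tdLN and spleen in clonotypes. Each line runs from the nonamer to the last base of the segment, on the plus strand of chromosome 14 (RefSeq annotation, GRCm38), with the nonamer, the heptamer and the 4 codons of the Phe-Gly-X-Gly position in capitals. The letters searched were GGTTTTTGT for the nonamer and CACTGTG for the heptamer, on the plus strand near the annotated start of each segment. Spacers of 11, 12 and 13 bases were tried and the best match was kept, with a heptamer ending in GTG scored higher. The signals that follow here have spacers of 12 bases.
Traj22, chr14:54197220-54197307: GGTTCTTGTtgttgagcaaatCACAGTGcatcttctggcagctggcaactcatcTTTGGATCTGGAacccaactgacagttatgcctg
Traj30, chr14:54189838-54189924: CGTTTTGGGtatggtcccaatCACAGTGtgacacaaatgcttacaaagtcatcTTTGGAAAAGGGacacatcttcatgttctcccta
Traj31, chr14:54187867-54187951: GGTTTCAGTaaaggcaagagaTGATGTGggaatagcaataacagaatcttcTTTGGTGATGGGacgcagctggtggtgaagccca
Traj23, chr14:54196053-54196140: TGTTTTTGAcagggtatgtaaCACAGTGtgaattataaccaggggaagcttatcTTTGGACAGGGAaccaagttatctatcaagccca
Traj26, chr14:54194462-54194549: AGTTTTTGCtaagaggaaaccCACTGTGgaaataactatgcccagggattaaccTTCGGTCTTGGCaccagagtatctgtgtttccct
Traj7, chr14:54211442-54211528: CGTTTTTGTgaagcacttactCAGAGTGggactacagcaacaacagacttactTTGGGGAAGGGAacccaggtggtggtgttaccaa
Traj35, chr14:54183746-54183838: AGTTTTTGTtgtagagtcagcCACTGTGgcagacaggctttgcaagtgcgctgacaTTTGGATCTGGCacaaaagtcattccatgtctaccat
Traj5, chr14:54213749-54213838: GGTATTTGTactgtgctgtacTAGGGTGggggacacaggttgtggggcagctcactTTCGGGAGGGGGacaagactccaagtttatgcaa
Traj2, chr14:54217808-54217901: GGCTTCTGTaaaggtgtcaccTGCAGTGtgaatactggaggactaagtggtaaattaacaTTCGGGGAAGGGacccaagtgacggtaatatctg
Traj58, chr14:54157252-54157342: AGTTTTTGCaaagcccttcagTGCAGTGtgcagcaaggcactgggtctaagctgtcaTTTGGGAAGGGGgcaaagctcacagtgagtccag
Traj57, chr14:54158479-54158569: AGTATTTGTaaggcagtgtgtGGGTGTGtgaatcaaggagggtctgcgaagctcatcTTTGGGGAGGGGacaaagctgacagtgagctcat
Traj39, chr14:54179934-54180024: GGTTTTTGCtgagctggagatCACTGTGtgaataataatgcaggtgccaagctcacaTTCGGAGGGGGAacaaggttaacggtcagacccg
Traj37, chr14:54181490-54181577: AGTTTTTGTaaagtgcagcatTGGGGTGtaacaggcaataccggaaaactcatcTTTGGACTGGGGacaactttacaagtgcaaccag
Traj45, chr14:54172800-54172890: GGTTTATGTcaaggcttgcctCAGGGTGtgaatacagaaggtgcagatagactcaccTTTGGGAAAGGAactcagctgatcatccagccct

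RefSeq annotated 60 Traj segments, of which 19 were not listed in any library and 9 of these are pseudogenes by biotype. All 39 segments studied had a heptamer ending in GTG, against 42.1% of the 19 unlisted segments, though the search favoured this end in every segment. A GT splice donor stood behind the last base of all 39, of 54 of the 60 and of 13 of the 19 unlisted. The exact heptamer stood before 13 of the 39 segments (33.3%) and 16 of the 60 (26.7%), and the exact nonamer before 2 and 3. Of the 60, 42 had the motif with Phe or Trp, a splice donor and no stop codon, and 40 of these were listed. J47 and J25 had all of these features and were not listed; J25 has a spacer of 11 bases. They are shown for that reason, with J44, which was not listed either and has a Leu codon at the motif.
Traj47, chr14:54171772-54171856: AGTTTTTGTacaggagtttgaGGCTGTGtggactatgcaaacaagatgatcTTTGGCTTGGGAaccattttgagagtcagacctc
Traj25, chr14:54194788-54194871: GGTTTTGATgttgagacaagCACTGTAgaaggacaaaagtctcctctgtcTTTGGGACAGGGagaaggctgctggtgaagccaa
Traj44, chr14:54173662-54173750: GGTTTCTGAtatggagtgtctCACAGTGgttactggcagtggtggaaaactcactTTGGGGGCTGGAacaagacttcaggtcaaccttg

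Usage was uneven along the array, high in the middle and low at both ends. J22 held 7.72% of UMIs on average over the 12 libraries, J30 6.79%, J31 5.86%, J23 5.52% and J26 4.82%, 30.7% together, and the 10 most used segments held 50.05%. The 5 least used, J58 with 0.837%, J2 with 0.758%, J5 with 0.605%, J35 with 0.471% and J7 with 0.123%, held 2.80%. High and low segments stood next to each other: J35, J28 (0.898%) and J24 (0.974%) lay inside the high middle stretch.

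J22, the most used segment, took 6.74% of UMIs in control IgG tumors, 10.7% with IL-10-Fc, 7.92% with αCSF1R and 8.56% with BF10. In spleens it took 8.17%, 8.52%, 8.23% and 7.73% in the same order, and in tdLNs 6.58%, 6.72%, 6.21% and 6.55%. It was first in 6 of 12 libraries and never below the third place; spleens lay above tdLNs without overlap. J31, with a heptamer that matches the consensus at only 4 of 7 bases, was first in the 4 tdLN libraries, at 6.73%, 6.73%, 6.94% and 6.87%, against 5.62%, 5.56%, 5.69% and 6.04% in spleens. J7 was last in 12 of 12 libraries, between 0.0300% (6 UMIs, tumor, αCSF1R) and 0.231% (tumor, IL-10-Fc). The order hardly moved when clonotypes were counted, with J22 (6.77%), J31 (5.69%), J30 (5.62%), J23 and J26 (4.86%) leading and J7 (0.157%) last.

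**Figure D1:**
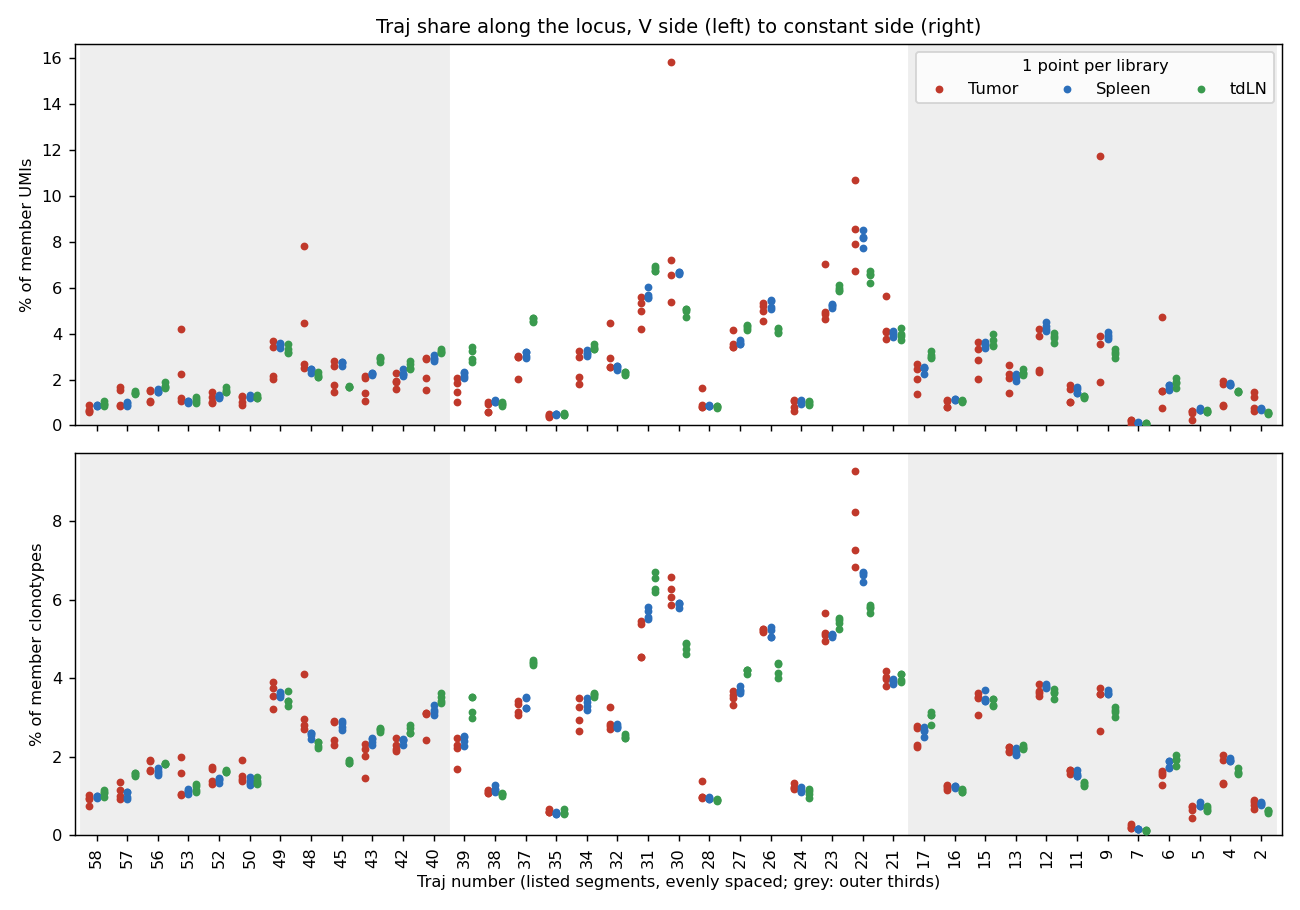
Share of each Traj segment in percent of the UMIs (top) and of the clonotypes (bottom) of the 39 segments, in the order of the locus, with 1 point per library. The middle segments J31, J30 and J22 stand highest and J7 lowest in both panels, and the tumor points that stand apart among UMIs, at 15.8% for J30 and 11.8% for J9, fall to 6.58% and 3.76% among clonotypes.

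Signal and usage were set side by side over the 39 segments as a description. The 16 segments with at most 12 of 16 matching signal bases had a median of 1.61% of clonotypes, the 16 with 13 or 14 matches 2.59%, and the 7 with 15 or 16 matches 2.66%, and each class ran widely, from 0.687% to 5.69%, from 0.157% to 6.77% and from 0.577% to 3.54%. Across segments, the number of matches and the mean clonotype share had a Pearson r of 0.163 and a Spearman rho of 0.221, the heptamer alone an r of 0.242 and a rho of 0.340, the nonamer alone an r of -0.0468 and a rho of -0.0760, and locus order and share an r of 0.0422 and a rho of 0.0261. The points share their libraries and the pairing with the same V genes, and such weak values are no finding.

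J7 is a special case among the listed segments. Read in the frame that its splice donor sets, its motif starts with TTG, a Leu codon, where the 38 other segments have Phe or Trp. Of its 690 clonotypes, 678 (98.3%) were placed in another frame than the segment's own and 686 ended their CDR3 in TTT or TTC, while for each of the 38 other segments at least 99.0% of clonotypes lay in the frame of the segment. The 1402 UMIs of J7 are thus reads assigned to the segment outside its own frame, and how the portal came to list them was not tested. All values of J7 carry this limit.

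The V gene went with the place of the J. Chains of the J-proximal V families, Trav17 to Trav21, whose genes lie next to the array, used J segments at a mean position of 18.3 on a scale from 0 (J58) to 100 (J2), against 51.4 for all other families. The difference was -33.1 ± 0.84 (SD, n = 12 libraries) and ran from -34.4 to -31.3, negative in 12 of 12 libraries (exact two-sided sign-flip permutation test, p = 0.000488, the smallest that 12 libraries allow; libraries of a treatment may share mice). By tissue it was -32.9 ± 1.33 in tumors, -32.9 ± 0.50 in spleens and -33.5 ± 0.56 in tdLNs (n = 4 each), so the tissues differed by less than the spread among tumor libraries.

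Among the J-proximal families, Trav21 had a mean J position of 15.8, Trav19 of 17.2, Trav18 of 17.5, and Trav17 and Trav20 of 23.3 each. J58 to J40 took 83.8% ± 3.25 of Trav21 clonotypes, 82.6% ± 2.53 of Trav19 clonotypes and 70.5% ± 4.19 of Trav17 clonotypes (SD, n = 12). The favourite segments of Trav21 were J56 (14.5% of its clonotypes), J57 (13.7%) and J58 (11.3%), those of Trav19 J56 (15.7%), J57 (10.7%) and J49 (10.1%). J58, one of the least used segments of the whole repertoire, was thus among the leading segments of the V family nearest to it. Trav18 and Trav20 rested on 144 and 183 clonotypes in all.

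At the other end, the distal Trav1 and Trav2 had mean J positions of 58.7 and 60.9, and J58 to J40 took 4.41% ± 5.20 and 1.99% ± 1.56 of their clonotypes. The leading segments of Trav1, whose MAIT partner J33 is not counted here, were J30 (10.3%), J22 (10.1%) and J31 (9.34%), and those of Trav2 were J31 (10.1%), J23 (9.97%) and J30 (7.98%). The 5 largest other families lay between these extremes, Trav14 at 49.1 (14.8% of clonotypes), Trav7 at 55.0 (14.3%), Trav12 at 53.0 (12.2%), Trav6 at 52.2 (11.3%) and Trav13 at 48.4 (8.27%). J22 was among the 3 leading segments of each of them. Trav11, whose main partner J18 is not counted here, stood apart with J27 at 20.8% ± 17.9 of its clonotypes, a share that ran from 10.9% to 76.2% between libraries. Trav11 rested on 1238 clonotypes in all, so that its share in a single library can rest on few.

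**Figure D2:**
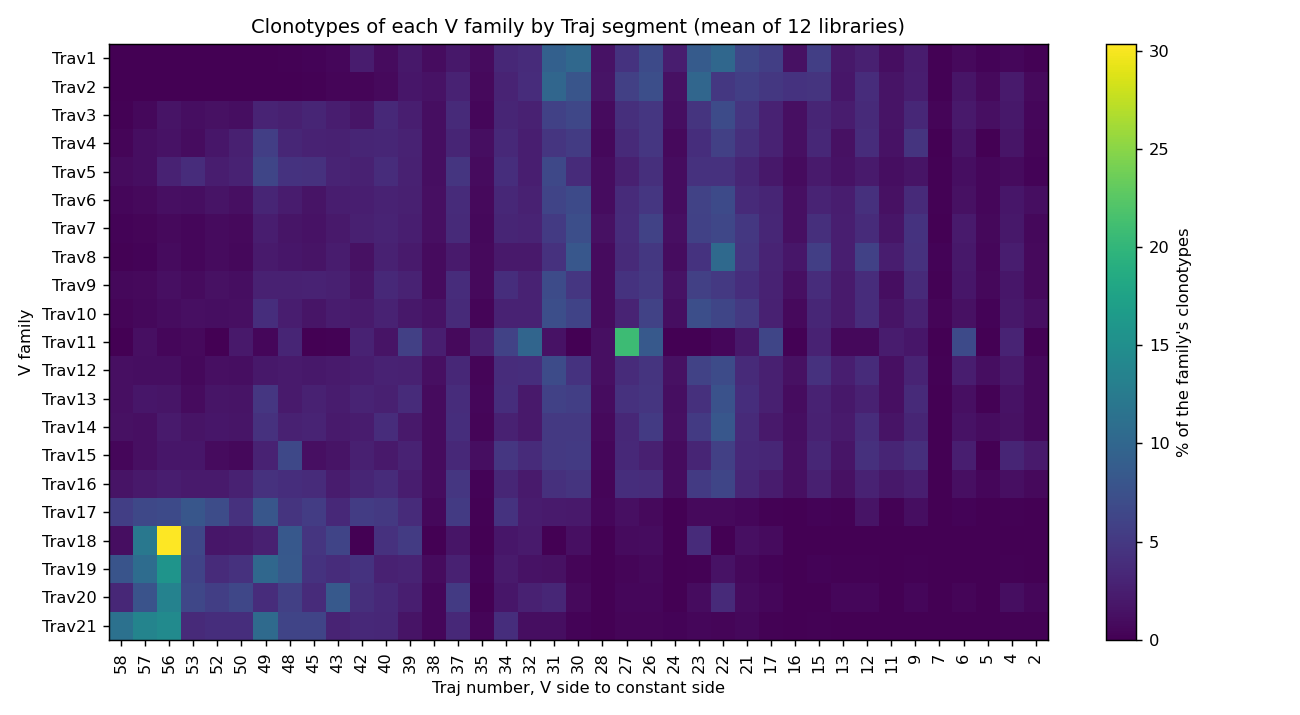
Percent of the clonotypes of each V family (rows) that used each Traj segment (columns, V side to constant side), as the mean over libraries. Trav17 to Trav21 are brightest at the V side, from J58 to J48, while Trav1 and Trav2 are dark at the V side and bright at J31, J30, J23 and J22.

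Seen from the J side, the V families of the 3 stretches of the array differed in the same sense. Trav21 made up 2.53% ± 0.55 of the clonotypes of the V-side stretch (J58 to J40). Its share there was 89.8 times that in the constant-side stretch (J20 to J2, where J17 is the first listed segment). For Trav19 the ratio was 50.9 with 3.68% ± 0.54 at the V side. The constant-side shares under these ratios were very small, 0.0281% ± 0.0175 for Trav21 and 0.0723% ± 0.0473 for Trav19. The size of both ratios is therefore imprecise. Trav5 and Trav16, with ratios of 2.52 and 1.72, also leaned to the V side. Trav7 leaned the other way, with 9.94% ± 1.70 of the V-side clonotypes and 16.4% ± 1.66 of the constant-side ones (SD, n = 12 libraries). So did Trav8 with a ratio of 0.460, Trav1 with 0.214 and Trav2 with 0.0666. The V-side shares of Trav1 and Trav2 were also very small, 0.0656% ± 0.0923 and 0.0338% ± 0.0303.

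Single Trav genes could be read where the assignment gave 1 V name, which it did for 69.2% of TRAC clonotypes. They showed the same grading in parts of the locus only. All 97 such names were placed on GRCm38, and 74 had at least 200 clonotypes. The locus of this strain holds 2 duplicated stretches, named d and n, upstream of the genes without a letter next to the J array. Mean J position fell along the 21 d genes, from 58.04 for Trav7d-2 (chromosome 14, start 52683964) to 29.4 for Trav8d-2 (start 53042428), with 23.7 for Trav14d-2 as the lowest and 45.8 for Trav13d-3 as an exception late in the row (Spearman rho -0.891). Among the 27 genes without a letter outside the J-proximal families it fell, in the set next to the array, from 58.8 for Trav7-3 (start 53443314) to 24.6 for Trav13-5 (start 53795455), with a rho of -0.585 that includes the distal genes. The 23 n genes lay between 44.4 and 65.0 with no such fall (rho -0.110), although they lie between the other two sets. Trav8-2 (62.7), Trav16 (60.2) and Trav14-3 (58.1) were exceptions among the genes near the array. Over all 74 genes, start and mean J position had an r of -0.355 and a rho of -0.259, given as a description. Over the 71 genes outside the J-proximal families the values were weaker, an r of -0.221 and a rho of -0.161. Copies in the d, n and unlettered stretches are near-identical, reads of 1 copy may be assigned to another, and the part of this in the n values and in the 3 exceptions was not tested.

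**Figure D3:**
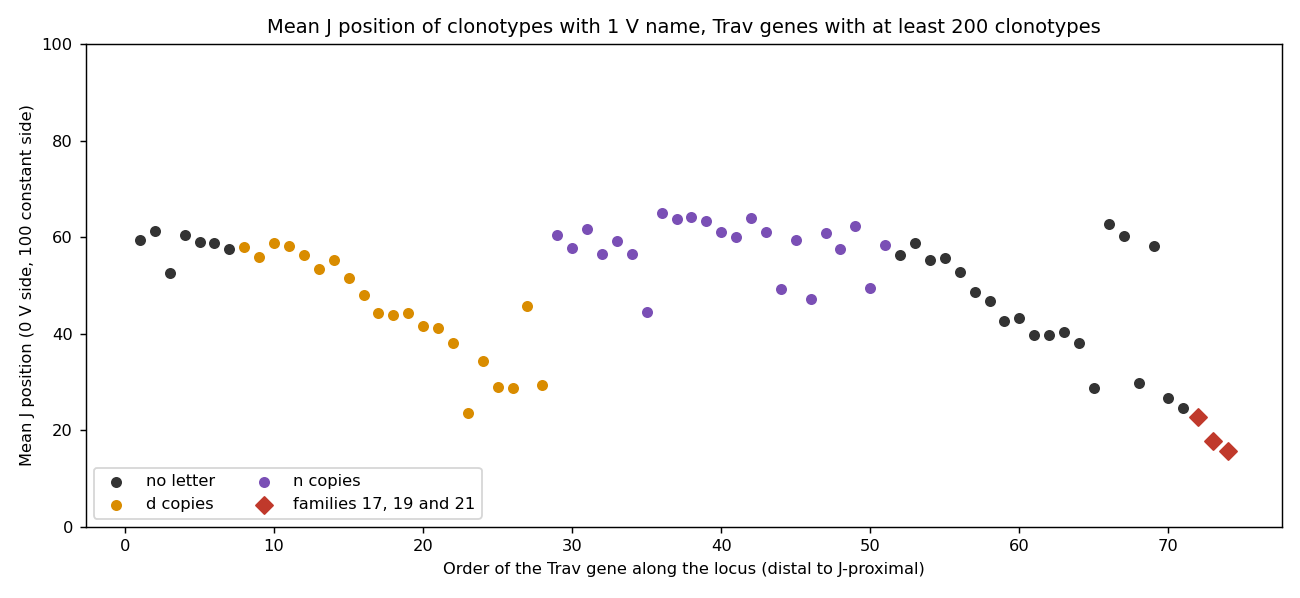
Mean J position (0 at the V side, 100 at the constant side) of the clonotypes of each Trav gene with at least 200 clonotypes, over all libraries, against the order of the genes along the locus. The position falls from 58.04 to 28.9 between Trav7d-2 and Trav5d-4 and again from 58.8 to 15.7 between Trav7-3 and Trav21-dv12, with Trav8-2, Trav16 and Trav14-3 high in the last set, while the n copies stay between 44.4 and 65.0.

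Between tissues, the balance of the array as a whole moved little. The V-side stretch held 23.0% ± 0.31 of UMIs in tumors, 23.0% ± 0.25 in spleens and 23.9% ± 0.17 in tdLNs, the middle stretch (J39 to J21) 53.9% ± 2.44, 53.1% ± 0.26 and 53.2% ± 0.20, and the constant-side stretch 23.1% ± 2.58, 23.96% ± 0.38 and 22.9% ± 0.15 (SD, n = 4 libraries each). The tdLN libraries had 0.936 percentage points more at the V side than spleens and 1.06 less at the constant side, in 4 of 4 treatments and without overlap (exact two-sided permutation test, p = 0.0286 each, the smallest that 4 against 4 allow, adjusted p = 0.0857 over 9 tests). Tumors had 0.923 points less at the V side than tdLNs (exact permutation p = 0.0286, adjusted p = 0.0857), but 0.209 points more once clonotypes of at least 0.1% of TRAC UMIs were left out. None of the 9 tests passed the adjusted threshold of 0.05. The other 6 had exact permutation p of 0.486 or more. Among clonotypes, tdLNs had 0.705 points more than spleens at the V side and 1.17 less at the constant side (exact permutation p = 0.0286 each, adjusted p = 0.129).

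Mean J position over UMIs summed this up in a single value per library. It was 53.1 in control IgG tumors, 52.1 with IL-10-Fc, 51.0 with αCSF1R and 52.1 with BF10, and in the same order 51.8, 52.1, 52.3 and 51.9 in spleens, and 50.5, 50.5, 50.5 and 50.3 in tdLNs. The tdLN libraries lay nearer the V side than all spleen and all tumor libraries. The difference from spleens was -1.55 and tumors lay 1.62 above tdLNs (exact two-sided permutation test, p = 0.0286 and adjusted p = 0.0429 over 3 tests for both), while tumors and spleens differed by 0.0733 (exact permutation p = 0.771). Pairing the libraries by treatment, both differences from tdLN had the same sign in 4 of 4 treatments but did not pass (exact sign-flip permutation test, p = 0.125 each, the smallest that 4 pairs allow). With J18 and J33 kept, tumors lay 1.04 above tdLNs (adjusted p = 0.214) and tdLNs 1.40 below spleens (adjusted p = 0.0857, exact permutation tests). The tdLN libraries also differed in that 4.96% to 6.34% of their UMIs were gamma delta chains, against 0.677% to 2.30% in spleens. In tumors gamma delta chains were 4.27% with control IgG and 8.93% with αCSF1R, but 0.873% and 0.898% in the IL-10-Fc and BF10 libraries. The αCSF1R and BF10 tdLN libraries had few reads per UMI (8.31% and 6.49% of UMIs with at least 7 reads, against 30.8% to 73.3% in the other 10) and 0.312 and 0.274 TRAC UMIs per TRBC UMI, against 0.672 to 0.816. The part of these in the tissue differences was not tested.

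Single segments, in contrast, differed clearly between tdLN and spleen. In clonotypes, 27 of the 39 segments passed the test, 13 higher and 14 lower in tdLN (edgeR quasi-likelihood test, Benjamini-Hochberg adjusted p under 0.05, against a background of 70.7% called among all 41 segments), and the median log2 fold change of the 39 was 0.02. Because shares sum to 100%, a rise of some segments lowers others. At the V side 6 of 12 rose and 2 fell, in the middle 6 of 15 rose and 5 fell, and at the constant side 1 of 12 rose and 7 fell. In all, 28 of the 39 did not overlap between the 4 tdLN and the 4 spleen libraries (73.2% of all 41 segments). Without the αCSF1R and BF10 tdLN libraries, 18 of 41 segments were called.

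J45 fell most. It made up 2.76%, 2.90%, 2.67% and 2.85% of clonotypes in spleens, in the order of treatments used above, and 1.89%, 1.90%, 1.82% and 1.83% in tdLNs. All 4 tdLN libraries lay under all 4 spleen libraries, a log2 fold change of -0.58 (SE 0.04, edgeR adjusted p = 1.1e-07). Tumors, at 2.42%, 2.89%, 2.30% and 2.91%, overlapped with spleens and lay above all tdLNs.

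J57, the second segment of the array and a favourite of Trav21 and Trav19, rose most. Its clonotype share was 1.08%, 0.970%, 0.921% and 1.08% in spleens and 1.52%, 1.59%, 1.58% and 1.502% in tdLNs (log2 fold change 0.61, SE 0.07, edgeR adjusted p = 6.0e-06). Tumors had 1.35%, 0.997%, 1.15% and 0.914% and overlapped with spleens but not with tdLNs.

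J39 and J37, neighbours in the listed order but for J38, also rose in tdLN. J39 had 2.51%, 2.28%, 2.40% and 2.51% of clonotypes in spleens and 2.99%, 3.14%, 3.52% and 3.51% in tdLNs (log2 fold change 0.44, SE 0.05). J37 had 3.48%, 3.23%, 3.53% and 3.23% in spleens and 4.40%, 4.33%, 4.45% and 4.42% in tdLNs (log2 fold change 0.39, SE 0.03). J38, between them, fell (log2 fold change -0.19, SE 0.05), so neighbouring segments moved in opposite directions. J52 (log2 fold change 0.20) and J17 (0.19) complete the 5 largest rises.

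Among the falls, J2, the last listed segment, had 0.800%, 0.814%, 0.756% and 0.847% of clonotypes in spleens and 0.607%, 0.641%, 0.614% and 0.547% in tdLNs (log2 fold change -0.41, SE 0.07). J7 followed with -0.39 (SE 0.11) on rows outside its own frame. J30, the third most used segment by clonotypes, had 5.78%, 5.91%, 5.93% and 5.88% in spleens and 4.73%, 4.62%, 4.90% and 4.87% in tdLNs (log2 fold change -0.30, SE 0.02), and J26 had 5.22%, 5.30%, 5.04% and 5.06% against 4.38%, 4.35%, 4.12% and 4.01% (-0.29, SE 0.03). J22 fell by 0.20 on the log2 scale and J31 rose by 0.19. The first segment J58 (0.14, adjusted p = 0.0671) and the border segment J21 (0.04, adjusted p = 0.249) did not pass edgeR's test, and J40 passed it with 0.14. In the sequences shown above, the heptamer matched CACTGTG at 7 of 7 bases in J39, 4 in J57 and 3 in J37 among the risers, and at 7 in J26, 6 in J30, 5 in J45 and 4 in J2 among the fallers.

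Counted by UMIs with all 12 libraries, no segment passed between tdLN and spleen (edgeR, 0 of 41, 0% called, 7 at an unadjusted p under 0.05; DESeq2 called 8). Without the control IgG and αCSF1R tumors 31 of 41 segments were called, and with the 8 spleen and tdLN libraries alone 34. In UMIs, 27 of the 39 segments did not overlap between tdLN and spleen (68.3% of all 41).

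**Figure D4:**
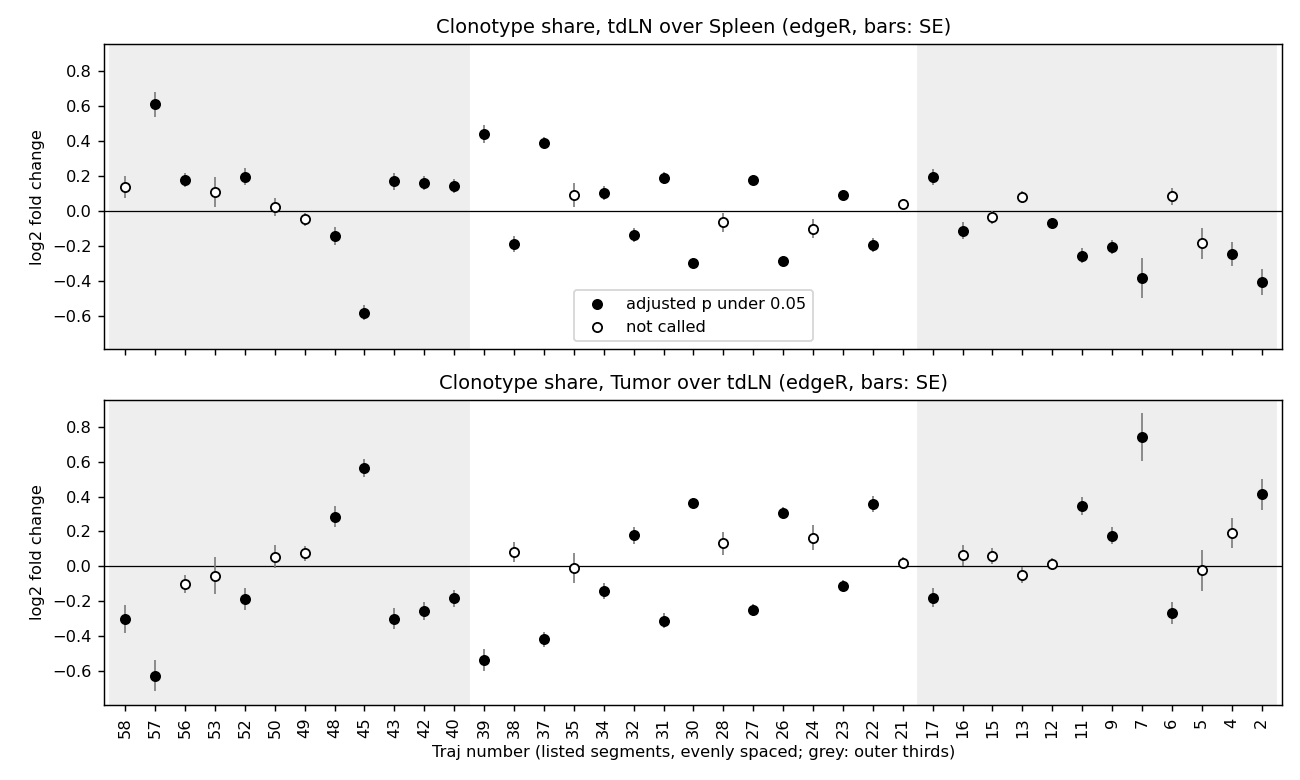
Log2 fold change of each segment's clonotype share between tdLN and spleen (top) and between tumor and tdLN (bottom) along the locus, edgeR, with bars for the SE and filled points at an adjusted p under 0.05. In the top panel J57, J39 and J37 stand highest, at 0.61, 0.44 and 0.39, and J45 lowest, at -0.58; both panels share the tdLN libraries, so that they mirror each other in part by construction.

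The differences between tdLN and spleen were also read within V families, as a description. In the 10 largest families, which held 88.9% of the clonotypes, J45 was lower in tdLN in 10 of 10 families and without overlap between libraries in 7. J30 was lower in 10 of 10 (8 without overlap), and J37, J39 and J57 were higher in 10 of 10 (7, 7 and 6 without overlap). J26 was lower in 9 (6 without overlap), J22 in 9 (5), J9 in 9 (5) and J2 in 8 (4). Over all 390 pairs of family and segment, 103 (26.4%) did not overlap. J4 and J11 were also lower in tdLN in 10 of 10 families (1 and 2 without overlap), and J40 was higher in 10 of 10 (1 without overlap). The families share their libraries and are not replicates of each other. The segments named were chosen with their changes in these same libraries known, so the families are no independent check. The part of V usage in the differences was not tested.

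Against tdLN, tumors differed in 24 of the 39 segments by clonotypes, 10 higher and 14 lower (edgeR, 63.4% called among all 41), and in 9 by UMIs, 3 higher and 6 lower (24.4% called). Of the 39 segments, 21 did not overlap between tumor and tdLN libraries by clonotypes (56.1% of all 41) and 15 by UMIs (41.5% of all 41). These comparisons use the same tdLN libraries as those with spleen. By clonotypes, J57 (log2 fold change -0.62, SE 0.09), J39 (-0.54), J37 (-0.42), J31 (-0.31) and J58 (-0.30) were lowest and J7 (0.74, SE 0.14, outside its own frame), J45 (0.56), J2 (0.41), J30 (0.36) and J22 (0.36) highest. In UMIs the 3 higher segments were J48 (0.84, SE 0.26), J2 (0.84, SE 0.21) and J30 (0.67, SE 0.21), and among the called segments studied the 5 largest falls were J39 (-1.0001), J43 (-0.85), J37 (-0.78), J58 (-0.49) and J42 (-0.49). The UMI calls were fragile: leaving out 1 library gave between 3 (without control IgG tdLN) and 16 calls (without αCSF1R tumor), only J18, J37 and J39 were called whichever library was left out, and without the αCSF1R and BF10 tdLN libraries none was. J48 took 4.49%, 2.69%, 7.80% and 2.52% of UMIs in tumors and 2.31%, 2.13%, 2.12% and 2.18% in tdLNs, so the rise came mainly from 2 tumor libraries. The UMI share of J2 was also uneven among tumors. It was 0.456-fold that of control IgG with IL-10-Fc, 0.777-fold with αCSF1R and 0.539-fold with BF10. Without clonotypes of at least 0.1% of TRAC UMIs, J2 took 0.575%, 0.679%, 0.413% and 0.769% in tumors.

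Between tumor and spleen, 0 of 41 segments passed edgeR's test in clonotypes (0% called, 8 at an unadjusted p under 0.05; DESeq2 called 0) or in UMIs (0% called, 12 at an unadjusted p under 0.05; DESeq2 called 3). Of the 39 segments, 7 did not overlap by clonotypes (17.1% of all 41) and 6 by UMIs (22% of all 41). J22 was among the 7, with 8.23%, 7.26%, 9.28% and 6.84% of clonotypes in tumors against 6.63%, 6.71%, 6.68% and 6.45% in spleens (log2 fold change 0.16, SE 0.05, edgeR adjusted p = 0.144).

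How far libraries lay apart was measured as the percentage of clonotypes or UMIs that would have to move to another segment to make 2 libraries alike. In clonotypes, 2 spleen libraries differed by 1.496% to 2.05%, 2 tdLN libraries by 1.53% to 2.48%, and a spleen and a tdLN library by 5.95% to 7.58%, without overlap. In UMIs the ranges were 1.85% to 2.66%, 2.19% to 3.19% and 8.20% to 9.99%. Within spleen and within tdLN, the treatments thus lay close together: every segment's UMI share of TRAC was between 0.724 and 1.24 times that of control IgG of the same tissue.

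Across treatments, with tissue in the model, 0 of 41 segments were called for IL-10-Fc, αCSF1R or BF10 against control IgG by edgeR, in UMIs or in clonotypes (0% called; at an unadjusted p under 0.05, 0 in UMIs and 1, 0 and 1 in clonotypes; DESeq2 called 0 in each). The tumors were different in another way. There is 1 tumor library per treatment, so the values below have no test, and their intervals cover counting error only.

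In tumors, the αCSF1R library lay 21.8% of UMIs away from the spleen libraries on average and the control IgG library 20.8%, while IL-10-Fc lay at 4.13% (3.51% to 4.86%) and BF10 at 2.57% (2.18% to 2.99%). Among spleens the distances were 1.85% to 2.66%, so BF10 overlapped with them and IL-10-Fc lay above. Counted by clonotypes, αCSF1R lay at 8.57%, control IgG at 5.61%, IL-10-Fc at 2.38% and BF10 at 2.34%. The αCSF1R library had 20015 UMIs in 2264 clonotypes of the 39 segments and the control IgG library 75177 in 8990, against 36415 clonotypes for IL-10-Fc and 52525 for BF10. Counting error alone makes such distances larger where counts are small, and its part in the distances of the tumor libraries was not tested. In the αCSF1R library 15.4% of TRAC UMIs were J18 or J33 chains, which are not counted here, against 4.55% to 5.94% in the other tumor libraries. Only J33 was high there, at 14.3% against 3.14% to 4.75%, while J18 was at 1.02% against 1.19% to 1.45%. The control IgG and αCSF1R tumors were also the 2 with high gamma delta shares given above, whose part in these distances was not tested.

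Clonotypes of at least 0.1% of TRAC UMIs are called expanded here. Without them the control IgG library lay 5.66% to 6.61% of UMIs from the spleens and the αCSF1R library 8.17% to 8.61%. Expanded clonotypes of the 39 segments numbered 69 in control IgG tumors with 38.2% of UMIs, 70 with αCSF1R with 46.8%, 12 with IL-10-Fc with 4.06% and 3 with BF10 with 0.395%. They touched 26, 29, 8 and 2 segments. Past a 2-fold difference from control IgG in the share of TRAC UMIs were 7 segments with IL-10-Fc (3 higher, 4 lower; 17.1% of the 41), 7 of the 39 with αCSF1R (3 higher, 4 lower; 19.5% of the 41) and 5 with BF10 (3 higher, 2 lower; 12.2%). With IL-10-Fc these were J5 (2.26-fold), J4 (2.02-fold) and J6 (2.01-fold), higher, and J53 (0.290-fold), J9 (0.304-fold), J2 (0.456-fold) and J28 (0.496-fold), lower. With BF10 J5 (2.61-fold), J4 (2.17-fold) and J6 (2.005-fold) were higher and J53 (0.261-fold) and J9 (0.335-fold) lower. With αCSF1R J6, J30 and J5 were higher and J7, J9, J28 (0.437-fold) and J53 (0.479-fold) lower. All share 1 control IgG tumor library, in which J9, J53 and J23 held large clones. By clonotypes 0 of 41 were past 2-fold in any treatment (0%), and without expanded clonotypes 0, 1 and 0 were, the 1 being J7.

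J9 is the clearest case. It took 11.8% of UMIs in control IgG tumors (95% Wilson interval 11.5% to 12.0%), against 3.54% with IL-10-Fc, 1.91% with αCSF1R and 3.88% with BF10, and 2.94% to 4.06% in spleens and tdLNs. Of the 11.8%, 9.53 points came from 3 clonotypes, and without the largest J9 would have had 3.89%. By clonotypes J9 ran from 2.65% to 3.76% in tumors. J5, in contrast, was low in control IgG tumors at 0.239% and stood at 0.536%, 0.640% and 0.616% in the other tumors, near the 0.579% to 0.766% of spleens and tdLNs. With expanded clonotypes left out the gap was smaller. J5 then had 0.388% with control IgG, 0.559% with IL-10-Fc, 0.516% with αCSF1R and 0.619% with BF10.

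In the αCSF1R tumor library J30 took 15.8% of UMIs (15.3% to 16.3%), of which 12.6 points came from 6 expanded clonotypes, J48 7.80% (6.18 points from 7) and J6 4.75% (4.14 points from 2). J6 was at 0.762% in control IgG tumors, a 5.60-fold difference in its share of TRAC UMIs, and J30 at 5.36%, a 2.66-fold difference. With expanded clonotypes left out, J30 had 5.997% with αCSF1R and 6.71% with control IgG, J48 3.04% and 2.74%, and J6 1.14% and 1.23%. In IL-10-Fc tumors J22 took 10.7%, with 2.85 points from 4 expanded clonotypes.

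**Figure D5:**
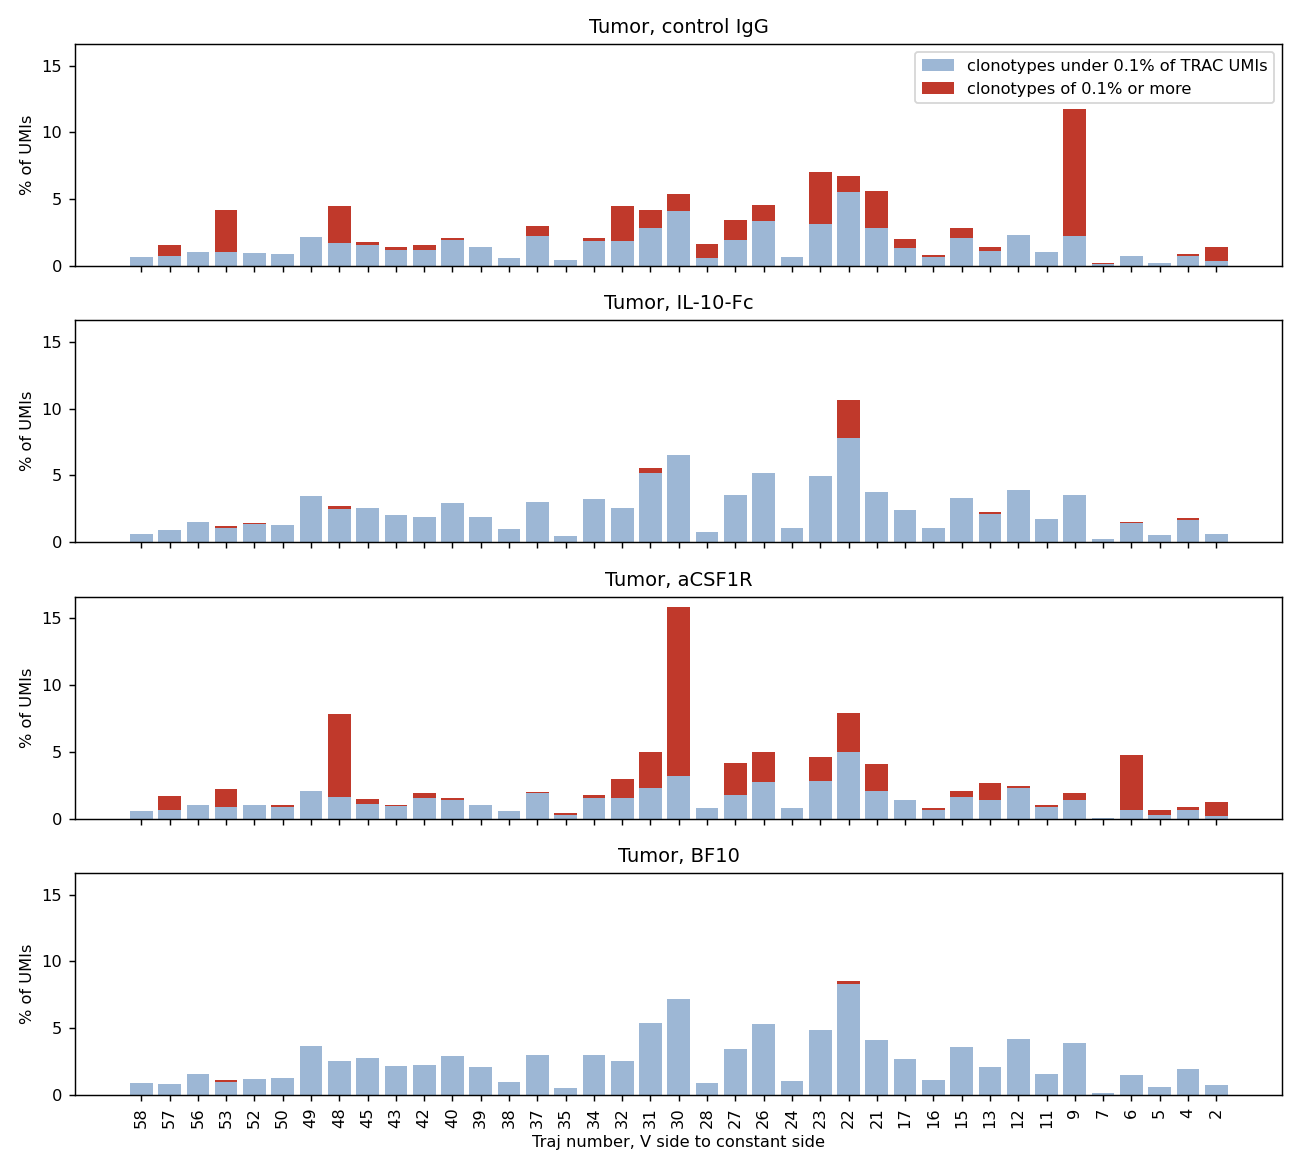
UMI share of each Traj segment in the 4 tumor libraries, in percent of the UMIs of the 39 segments, with the part from clonotypes of at least 0.1% of TRAC UMIs in red (aCSF1R in the plot is αCSF1R). The red part reaches 12.6 points at J30 with αCSF1R and 9.53 points at J9 with control IgG, and at most 2.85 points with IL-10-Fc and 0.286 points with BF10.

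The leading clonotypes of the libraries are shown as their CDR3 bases, with the bases left from the germline J in capitals. The leader of control IgG tumors held 69.6% of the J9 UMIs there, and that of αCSF1R tumors 44.4% of the J30 UMIs. The leaders of IL-10-Fc and BF10 tumors held 19.7% and 1.81% of the J22 UMIs. The leaders of control IgG tumors (Trav9N-3 with J9, 6151 UMIs, 8.18%), IL-10-Fc tumors (Trav7D-2 with J22, 1971 UMIs, 2.10%), αCSF1R tumors (Trav7N-6 with J30, 1406 UMIs, 7.02%, and Trav10 with J30, 901 UMIs, 4.50%) and BF10 tumors (a Trav14 gene with J22, 174 UMIs, 0.155%) follow, and then those of tdLN control IgG (Trav10 with J43), tdLN αCSF1R (Trav14D-1 with J23) and tdLN BF10 (Trav21/DV12 with J52).
Tumor control IgG, J9: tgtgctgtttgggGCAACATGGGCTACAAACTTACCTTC
Tumor IL-10-Fc, J22: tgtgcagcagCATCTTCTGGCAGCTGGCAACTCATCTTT
Tumor αCSF1R, J30: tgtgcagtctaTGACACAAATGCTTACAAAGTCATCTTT
Tumor αCSF1R, J30, next: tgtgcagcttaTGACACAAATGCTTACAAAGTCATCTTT
Tumor BF10, J22: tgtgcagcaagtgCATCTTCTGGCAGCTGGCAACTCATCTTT
tdLN control IgG, J43: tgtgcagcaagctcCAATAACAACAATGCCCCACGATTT
tdLN αCSF1R, J23: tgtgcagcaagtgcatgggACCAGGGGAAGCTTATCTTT
tdLN BF10, J52: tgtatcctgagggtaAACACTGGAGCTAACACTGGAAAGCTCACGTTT

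These sequences show how the same J enters different clones. The pair of J30 clonotypes of αCSF1R tumors kept the same 28 bases of J30, with no base trimmed, behind different V ends. The first was found in that library alone and the second also in the αCSF1R tdLN library, and the J9 clonotype of control IgG tumors also in the control IgG tdLN library. The CDR3 bases of the BF10 leader, with an untrimmed J22, led all 4 spleen libraries as well and were found in 12 of 12 libraries, and the Trav7D-2 and J22 clonotype of IL-10-Fc tumors in 11. The tdLN αCSF1R leader was found in 1 library and had lost 9 bases of J23.

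As means of a stretch, the middle and constant-side segments were joined with less trimming than the V-side ones. Single segments overlapped between the stretches. J17 at the constant side lost 4.35 bases on average, while J50 and J49 at the V side lost 2.36 and 2.57. The mean number of J bases removed before joining was 3.54 ± 0.19 in the V-side stretch, 2.94 ± 0.08 in the middle and 2.93 ± 0.08 at the constant side (SD, n = 12 libraries), and the V side was highest in 12 of 12 libraries. CDR3s were 41.9, 40.5 and 40.4 bases long on average, and the germline segments bring 31.3, 29.7 and 29.7 of these bases. Across the 38 segments other than J7, the germline bases a segment brings and the mean CDR3 length had a Pearson r of 0.944, as a description over segments that share libraries. J11 was trimmed least, 1.41 bases with 45.3% of clonotypes untrimmed, then J37 with 1.83 and J22 with 1.85 (40.2% untrimmed), and J39 most, 5.12 bases with 6.60% untrimmed, followed by J45 with 4.52 and 5.16% untrimmed. J45 and J39, which moved in opposite directions between tdLN and spleen, were thus alike in their trimming.

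The V-side stretch as a whole was also the least shared between treatments. A clonotype was called shared when the same V, J and CDR3 bases were listed in another library of its tissue, which rests on the depth of the other libraries. In spleens 16.4% to 19.1% of V-side clonotypes were shared, against 21.2% to 25.2% in the middle and 20.6% to 23.7% at the constant side. In tdLNs the ranges were 15.02% to 17.6%, 19.8% to 23.8% and 18.3% to 21.8%, and in tumors 7.78% to 14.4%, 11.1% to 20.3% and 10.1% to 19.9%. The V-side stretch was lowest in 12 of 12 libraries. Of 28 clonotypes listed in all 12 libraries, 10 used J22, the segment with 20.5% of its distinct clonotypes in at least 2 libraries, second to J12 with 20.99%. The least shared single segments lay outside the V side: J7 with 3.46%, J2 with 8.07%, J35 with 8.09% and J38 with 9.66%.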

How the data were processed

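Values are UMI counts that the authors deposited: 3 clonotype tables, 1 per tissue, from the QIAseq Immune Repertoire kit (12 libraries, reverse transcription from the constant regions, Qiagen portal). Each row gives the V, J and CDR3 of a clonotype in 1 library with its number of UMIs with at least 3 and at least 7 reads. The submitters' processing notes name mm10; germline reference and error correction are not given in the sources used here. The deposited frequency column was not used.

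TRAC rows were summed by Traj number. Member UMIs ran from 20015 to 130265 and clonotypes from 2264 to 60359 per library, so that 3 UMIs, the limit a count of 0 allows, were 0.0023% to 0.015%; intervals and limits cover counting error only. Shares are of the 39 segments unless TRAC is named. edgeR 4.0.16 (R 4.3.3) fitted tissue and treatment to all 12 libraries and 41 segments (quasi-likelihood, library size as offset, Benjamini-Hochberg threshold 0.05), with UMIs and with clonotypes. On data simulated for tdLN against spleen clonotypes (8 of 41 segments changed, 20 simulations), it recovered 100% at rises of 1.25-fold and 1.5-fold, with 7.25% and 4.78% false calls. Each rise was balanced by the fall of a segment of similar share, so that all other shares stayed, and a common dispersion was used. In the real data 29 of 41 segments were called, so these rates may not hold there. Stretches, mean J position and the V to J difference were tested by exact permutation (scipy 1.17.1). Named were the 5 most and 5 least used segments, the 5 largest rises and falls among those called per tissue comparison, the segments of leading clonotypes, those at the ends and stretch borders, families 17 to 21, 1 and 2 and the 5 largest others; further segments and families were named after their values were seen. Sequences are RefSeq's on GRCm38, the build mm10 stands for. Alternatives were DESeq2 1.42.0, TMM, other read and UMI minimums, other models and left-out libraries. The segments and lists were chosen with earlier results of these data known.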

Additional observations from a re-analysis of the deposited data

Results flagged for a closer look

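In 8 of 159 groups of 4 libraries tested (segment, unit and tissue, with the V to J values), 1 library stood far from the other 3 by Dixon's criterion, which chance gives in about 1 in 20 groups. In UMI shares these were J48 in spleen αCSF1R (2.27%, low), J37 in tumor αCSF1R (2.02%, low) and J23 in tumor control IgG (7.06%, high, with 3.88 points from 8 expanded clonotypes). In clonotype shares they were J48 in tumor αCSF1R (4.11%, high), J40 in tumor αCSF1R (2.43%), J9 in tumor αCSF1R (2.65%, low, 60 clonotypes), J42 in spleen αCSF1R (2.30%) and J35 in tumor control IgG (0.656%). The αCSF1R tumor library, in which 4 of the 8 lie, had the fewest clonotypes, 2264.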

How the results depend on the processing

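The V to J difference stayed between -33.3 and -33.0 whichever library was left out, and called segments changed sign under no alternative. The small stretch differences depended on the setting. V-side UMIs, tumor minus spleen, were -0.63 percentage points with J18 and J33 in the total and -0.596 with 3 equal parts of the array; middle UMIs, tdLN minus spleen, were -0.354 with at least 7 reads and -0.715 with equal parts; V-side UMIs, tumor minus tdLN, were 0.209 without expanded clonotypes; with at least 2 UMIs, tumor minus tdLN clonotypes were 0.792 at the V side and -0.844 in the middle; middle clonotypes, tdLN minus spleen, were 0.194 without the 2 tdLN libraries with few reads per UMI. Mean J position, tumor minus tdLN, was 1.04 with J18 and J33 (exact permutation, adjusted p = 0.214) and 1.19 with at least 2 UMIs (0.129), and tdLN minus spleen -1.40 and -1.31 (0.0857 each). With 1 library left out they ran from 1.29 to 1.97 and from -1.61 to -1.46; 4 against 3 libraries cannot pass the threshold. Segments past 2-fold in tumors with IL-10-Fc, αCSF1R and BF10 were 0, 0 and 0 by clonotypes and 0, 1 and 0 without expanded ones.

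Segments called by UMIs, tumor against spleen, were 3 by DESeq2 and 1 with tissue alone in the model. For tumor against tdLN they were 23 by DESeq2, 18 with tissue alone, 25 without expanded clonotypes, 0 without the 2 tdLN libraries and 27 without the 2 tumor libraries with few clonotypes. For tdLN against spleen they were 5 with TMM, 8 by DESeq2, 2 with tissue alone, 2 with at least 2 UMIs, 24 without expanded clonotypes, 34 with spleen and tdLN only and 31 without the 2 tumor libraries. By clonotypes, tdLN against spleen gave 18 without the 2 tdLN libraries, and BF10 against control IgG 1 with spleen and tdLN only. Leaving out 1 library gave by clonotypes 0 to 1 (tumor against spleen), 22 to 29 (tumor against tdLN) and 20 to 31 calls (tdLN against spleen), and by UMIs 0 to 1, 3 to 16 and 0 to 9. Of the clonotype calls, 19 of 29 (tdLN against spleen) and 21 of 26 (tumor against tdLN) held whichever library was left out. Leaving out the low-read tdLN libraries, the tumor libraries with few clonotypes, or all tumors was chosen after seeing the data, and the cause of these changes was not tested.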
